A study of Mus musculus with 6 samples.

Results

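The genes described here encode the machinery that docks, primes and fuses secretory vesicles with the cell membrane. They were found by gene symbol: syntaxins (Stx), SNAP and VAMP proteins, syntaxin-binding proteins (Stxbp), complexins (Cplx), synaptotagmins (Syt), the priming and docking factors Unc13, Cadps and Rims, the GTPases Rab3 and Rab27, the vesicle proteins Sv2 and the granule proteins Ptprn and Ptprn2. The rule gave 73 of the 18193 genes on the array, measured by 170 probe sets, and the probe set with the highest mean stood for a gene. The study compared 2 tissues of untreated adult C57/BL6 mice on 3 arrays each. The carotid body, beside the carotid artery, senses blood oxygen, and the adrenal medulla is the inner, catecholamine-secreting part of the adrenal gland. Each carotid body sample pooled 18 organs and each adrenal sample 10 medullas, in both cases from 10 mice, and equal sample numbers mark a shared cohort. Values are log2 intensities of a probe set, and adrenal medulla was subtracted from carotid body, so that positive differences mean higher in carotid body.

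Vesicle fusion is driven by SNARE proteins, which zip together from the vesicle membrane (VAMPs) and the cell membrane (syntaxins and SNAP-25 relatives). Unc13 and Cadps proteins prime vesicles for this step, complexins clamp and activate the assembled SNAREs, and synaptotagmins that bind calcium trigger fusion when a cell is stimulated. Chromaffin cells of the adrenal medulla and glomus cells of the carotid body both release catecholamines and peptides from dense-core granules by this machinery, and nerve endings use the same proteins for synaptic vesicles. Several syntaxins and VAMPs matched by symbol serve the endoplasmic reticulum, Golgi apparatus or endosomes instead, and Snap91 is an adaptor of clathrin-coated vesicles and not a SNARE.

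Promoter sequence is shown for Cplx1, the only gene higher in carotid body by the thresholds below, and for its paralogue Cplx2, which was not. Rims3 and Rab3b are shown for the largest differences among the priming factors and the Rab GTPases. Each line gives the 150 bases before a RefSeq transcript start (GRCm38.p6), 5′ to 3′ on the strand of the gene, with capitals marking the motif GGGCGG, a binding sequence of Sp1-type factors, on either strand.
Cplx1, chr5:108550028-108550177, minus strand: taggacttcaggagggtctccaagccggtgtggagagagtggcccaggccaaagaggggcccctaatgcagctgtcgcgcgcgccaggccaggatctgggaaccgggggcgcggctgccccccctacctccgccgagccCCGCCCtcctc
Cplx2, chr13:54302406-54302555, plus strand: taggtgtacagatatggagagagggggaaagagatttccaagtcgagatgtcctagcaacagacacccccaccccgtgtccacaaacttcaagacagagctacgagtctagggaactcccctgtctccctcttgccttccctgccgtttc
Rims3, chr4:120854649-120854798, plus strand: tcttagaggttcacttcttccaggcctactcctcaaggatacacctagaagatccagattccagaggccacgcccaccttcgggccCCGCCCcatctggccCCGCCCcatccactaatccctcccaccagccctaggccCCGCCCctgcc
Rab3b, chr4:108878920-108879069, plus strand: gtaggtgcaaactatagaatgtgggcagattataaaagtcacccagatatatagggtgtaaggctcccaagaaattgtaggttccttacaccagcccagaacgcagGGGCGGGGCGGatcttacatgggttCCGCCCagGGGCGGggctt
The windows held 1 match in Cplx1, 0 in Cplx2, 3 in Rims3 and 4, of which 2 overlapped, in Rab3b. The G and C share was 71.3% in Cplx1, 53.3% in Cplx2, 63.3% in Rims3 and 52.7% in Rab3b. Of the 73 genes, 58 matched the promoter table, and 38 of these (65.5%) held GGGCGG on either strand before at least 1 listed start. Counted the same way, 31.3% of all 27025 genes in the table did, and 28.6% of its 32851 single windows. These genes were not limited to those on the array. The cAMP-response sequence TGACGTCA was in 1 of the 58 and the E-box CACGTG in 6 of them (1.72% and 10.3%), against 1.58% and 4.92% of all genes and 1.36% and 4.3% of all windows. None of the 4 windows shown held either of these motifs. Among the 7 genes of the table that differed by the thresholds below, 6 held GGGCGG, against 38 of all 58 matched genes. Of these 6, Cplx1 alone was higher in carotid body.

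Marker lists of cell types differed between the tissues, as the plot by array shows. Array medians lay between 5.16 and 5.32 (log2), and arrays correlated at 0.978 to 0.984 within carotid body, 0.991 to 0.995 within adrenal medulla and 0.938 to 0.951 between them, over all probe sets. Of 10 measured catecholamine cell markers 7 were higher in adrenal medulla, among them Chga (-2.08) and Th (-1.81), while Ddc was at 0.81; the mean log2 level of the list was 10.57 to 10.83 in carotid body, against 11.98 to 12.47 for adrenal medulla. Th, the enzyme that defines catecholamine cells, ranged from 11.42 to 11.89 over the carotid body pools and from 12.97 to 13.83 over the adrenal pools, well above the median of all probe sets. Of 10 adrenal cortex markers 9 were higher in adrenal medulla (list mean 11.92 to 12.49), and Star, the cholesterol transporter of steroid cells, was at 13.52 to 13.95 there. In carotid body the cortex list averaged 10.33 on array 1 with Star at 12.06, and went down to 5.49 on the others, where Star was at 3.85 and 3.81 and Mc2r at 3.47 and 3.79. In the other direction, 10 of 10 fibroblast, 8 of 9 smooth muscle, 8 of 10 Schwann and glia, 6 of 7 mast cell, 3 of 8 endothelial and 2 of 10 blood and immune markers were higher in carotid body. Of 14 axon and ganglion neuron markers, Gap43 was higher in carotid body and Rbfox3 and Snhg11 in adrenal medulla, with list means of 7.71 to 8.31 and 7.41 to 7.93. With the cohort as a block, the neuron marker Prph (1.44; limma adjusted p = 0.0947, and 0.0351 with the block) and the cortex marker Hsd3b1 (-6.75; 0.0553, and 0.0308 with the block) were called too. The Gapdh control probe sets have a gap between the 3′ and 5′ ends that grows with RNA degradation. The gaps were 1.45, 1.04 and 0.59 (log2) on carotid body arrays 1, 2 and 3, against 0.13 to 0.61 for adrenal medulla. The female-specific transcript Xist was at 8.84 to 10.96 in carotid body, against 4.45 to 5.60 for adrenal medulla. The Xist ranges of the tissues did not overlap, so that sex and tissue cannot be told apart in the differences below. The part of cell composition and RNA quality in them was not tested.

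**Figure D1:**
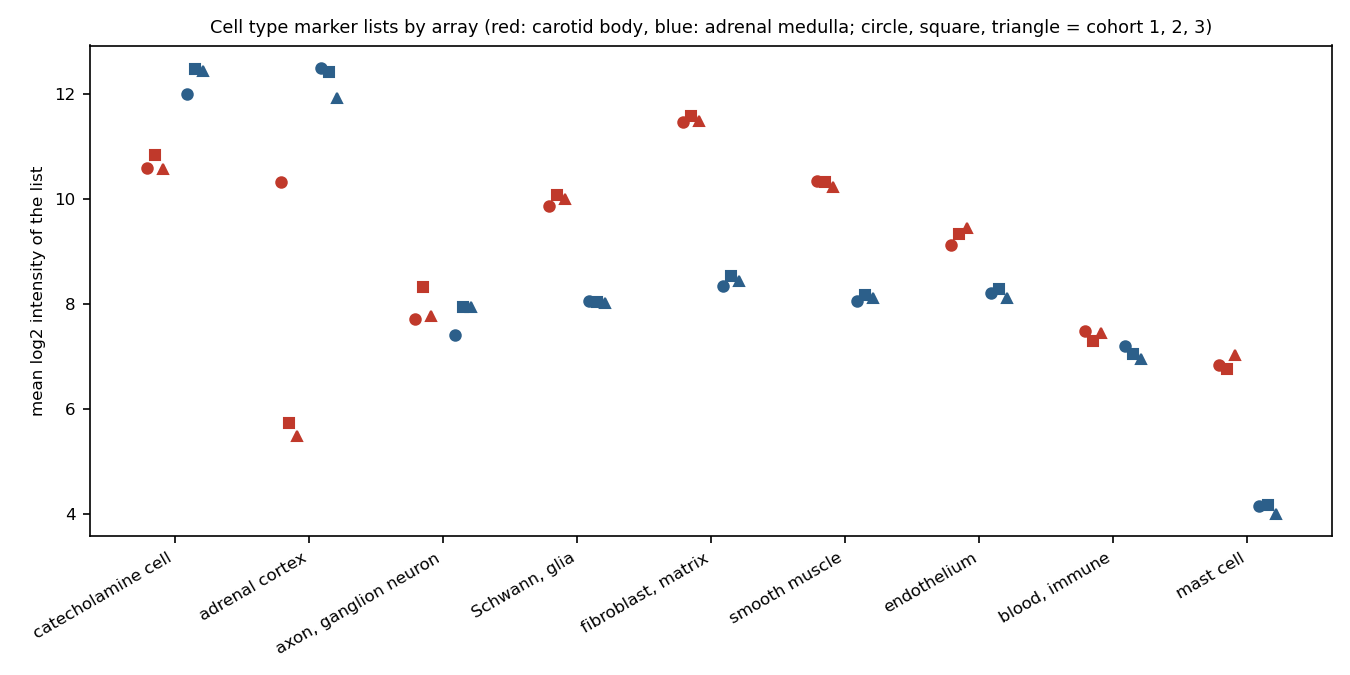
Mean log2 intensity of each cell type marker list on each array, red for carotid body and blue for adrenal medulla, with the symbol giving the cohort. The adrenal cortex list of carotid body array 1, at 10.33, stands near the adrenal medulla arrays (11.92 to 12.49) and far above the other carotid body arrays.

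Most of the fusion machinery differed by less than 2-fold between the tissues. A gene was called where limma's adjusted p over all 45037 probe sets was under 0.05 and the difference was at least 2-fold. By this rule 8 of the 73 genes were higher in adrenal medulla: Rims3, Syt16, Ptprn, Rab3b, Cadps2, Syt14, Syt17 and Syt12. Only Cplx1 was higher in carotid body, and 64 genes were not called. Over all genes, 6.08% were called toward adrenal medulla and 5.91% toward carotid body, 12% in either direction, against 11% and 1.37% of the 73. The 73 genes had a median difference of -0.21 (log2), against -0.04 for all genes, and 49 of the 73 lay below 0, against 54.7% of all genes. With the cohort as a block the same 8 and 1 genes were called, against 6.22% and 6.04% of all genes. Without the fold threshold, 15 passed toward adrenal medulla and 5 toward carotid body, or 20.5% and 6.85% of them, against 16.5% and 10.9% of all genes. In 22 genes all adrenal medulla arrays lay above all carotid body arrays and in 9 the reverse held, against 26.1% and 17.8% of all genes. Without adrenal medulla array 2, 4 genes were called toward adrenal medulla (4.81% of all genes), and without cohort 2 in both tissues 3 were (2.92% of all genes). Without carotid body array 1, which stood apart in the cortex markers and had the largest Gapdh gap, 8 and 2 genes were called. Rims4 and Syt9 entered and Syt17 left. Toward carotid body there were also 2 without carotid body array 2, which added Stxbp6, and without adrenal medulla array 2, which added Cplx2. In bulk tissue, fewer cells of a type and less RNA per cell cannot be told apart.

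**Figure D2:**
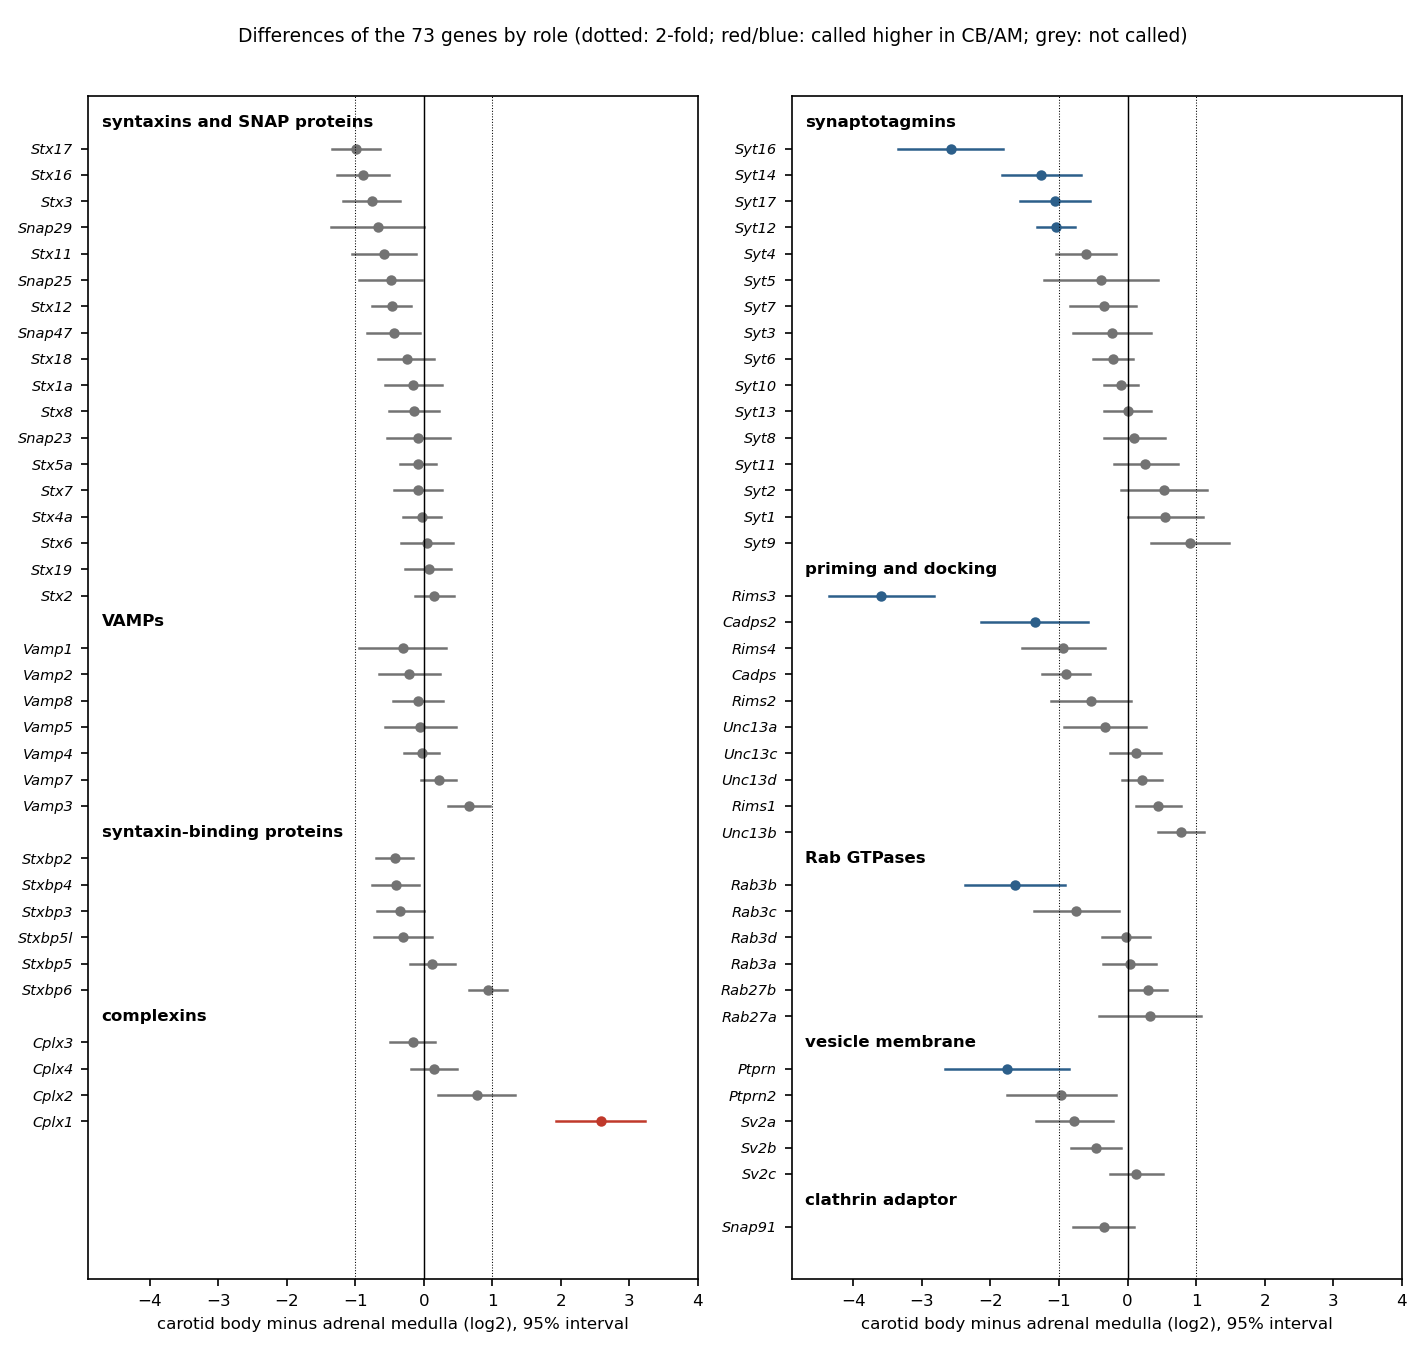
Difference in log2 intensity, carotid body minus adrenal medulla, for each of the 73 genes by role; points are means over 3 against 3 pools, bars 95% intervals from limma, dotted lines 2-fold. The 8 blue genes lie left of the dotted line at -1, Rims3 farthest at -3.59, and the red gene, Cplx1, lies alone at 2.58.

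The SNARE proteins themselves gave no called gene. Of 18 syntaxins and SNAP proteins 0 were called, with a median of -0.20 and a range from -0.99 to 0.15. An adjusted p under 0.05 alone was reached by 4 of the 18, all toward adrenal medulla, against 16.5% of all genes in that direction. Snap25, the cell membrane SNARE of regulated release, was at 11.01, 11.32 and 11.66 in carotid body, against 11.53, 11.98 and 11.93 for adrenal medulla. The groups overlapped, since carotid body array 3 lay above adrenal medulla array 1, but the carotid body sample was lower in each of the 3 cohorts. The difference was -0.48 ± 0.20 (SE; 95% interval -0.94 to -0.02; limma adjusted p = 0.128, and 0.0442 with the cohort as a block). Its partner syntaxin of the cell membrane, Stx1a, was at 8.08, 8.70 and 8.40 against 8.44, 8.48 and 8.72, a difference of -0.15 (95% interval -0.57 to 0.26) with overlapping groups. The dimmer probe set of Stx1a was at 4.78, 5.11 and 4.97 against 5.25, 6.19 and 5.73. Its groups were separate and its difference was under 2-fold (-0.77, limma adjusted p = 0.0485).

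The 4 syntaxin genes past the p threshold act mostly inside the cell. Stx17, a syntaxin of autophagosome fusion, was at 8.06, 7.83 and 8.23 in carotid body, against 9.13, 9.12 and 8.83 for adrenal medulla. These groups did not overlap, and the difference of -0.99 ± 0.15 (SE; limma adjusted p = 0.00316) lay just short of 2-fold. Stx16, of the trans-Golgi network, differed by -0.88 (limma adjusted p = 0.00767), Stx3, a syntaxin of apical and granule membranes, by -0.76 (0.019), and the endosomal Stx12 by -0.47 (0.0294). The other syntaxins lay between -0.58 and 0.15: Stx11 of immune cells, Stx18 and Stx5a of the endoplasmic reticulum and Golgi, Stx6 of the trans-Golgi network, Stx7 and Stx8 of endosomes, Stx2 and Stx4a of the cell membrane, and Stx19, which was near the floor at 3.22 to 3.61. Among the SNAP-25 relatives, Snap29 was at -0.67, Snap47 at -0.44 and the widely expressed Snap23 at -0.08, and the clathrin adaptor Snap91 differed by -0.35 (limma adjusted p = 0.244). The dimmer probe sets of Stx5a and Snap47 passed the p threshold, at -0.92 (limma adjusted p = 0.00706) and -0.77 (0.0201).

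The VAMPs, the vesicle SNAREs, gave no call either. Of 7 genes 0 passed both thresholds, and the median difference was -0.05. Vamp2, the main vesicle SNARE of regulated release, was at 9.13, 9.31 and 9.32 in carotid body, against 9.06, 9.79 and 9.54 for adrenal medulla. The lowest and the 2 highest values were all adrenal, and the difference was -0.21 (95% interval -0.65 to 0.24; limma adjusted p = 0.503). Its paralogue Vamp1 was at 6.93, 7.66 and 7.44 against 7.23, 8.16 and 7.56, with overlapping groups (-0.30; 95% interval -0.94 to 0.33). Vamp3, a VAMP of recycling endosomes and many non-neuronal cells, was at 11.53, 11.85 and 11.57 against 10.91, 11.03 and 11.04. All carotid body arrays lay above all adrenal arrays, with a difference of 0.66 ± 0.13 (SE; limma adjusted p = 0.00912) that was 1.58-fold; its 5 probe sets ranged from -0.07 to 0.66. Vamp4, Vamp5, Vamp7 and Vamp8, which serve Golgi, muscle, lysosomal and endosomal membranes, lay between -0.09 and 0.22.

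The syntaxin-binding proteins include regulators that hold or release syntaxins. Of 6 measured members 0 were called. Stxbp6, or amisyn, an inhibitor that competes for the SNARE complex, was at 9.98, 9.71 and 9.81 in carotid body, against 8.95, 8.80 and 8.93 for adrenal medulla. The groups were separate and the arrays of each tissue close, and the difference of 0.94 ± 0.12 (SE; limma adjusted p = 0.00153) missed 2-fold. Stxbp2, which acts in granule release of blood and epithelial cells, differed by -0.42 (limma adjusted p = 0.0372, and 0.0545 with the cohort as a block). Stxbp3 and Stxbp4 were at -0.34 and -0.41, and the tomosyn gene Stxbp5l at -0.30. The other tomosyn gene, Stxbp5, whose product sequesters SNAREs, was at 8.06, 8.26 and 8.29 against 7.91, 8.05 and 8.29, with overlapping groups (0.12).

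Complexin 1 was the only gene of the fusion machinery called higher in carotid body from the 6 arrays as deposited. Quantile normalization added Stxbp6 and Syt9. Cplx1 was at 11.38, 11.98 and 12.19 in carotid body, against 8.78, 9.34 and 9.69 for adrenal medulla. All carotid body arrays lay well above all adrenal arrays, and the cohort differences of 2.60, 2.64 and 2.50 were nearly equal. The difference was 2.58 ± 0.28 (SE), 5.98-fold, with a limma adjusted p of 0.000739, and it was 2.34 to 2.81 without any single array. A second probe set gave 2.91 and the dimmest gave 0.67. Cplx2, the paralogue known from chromaffin cells, was at 11.92, 11.90 and 11.48 against 10.85, 11.51 and 10.62. Here the groups touched, since adrenal medulla array 2 reached above carotid body array 3, and the difference was 0.77 ± 0.24 (SE; limma adjusted p = 0.054, and 0.0188 with the cohort as a block). Its 3 probe sets ranged from 0.61 to 0.90. Cplx3 and Cplx4, of retina, were near the floor at 3.72 to 4.38 in all arrays. The 14 neuron markers went both ways: Gap43, a protein of axons, was called in the same direction as Cplx1 (5.27), and Rbfox3 (-2.85) and Snhg11 (-2.62) in the opposite one. The other 11 were not called, Prph (1.44) only with the cohort as a block; the part of nerve fibres in the Cplx1 difference was not tested.

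**Figure D3:**
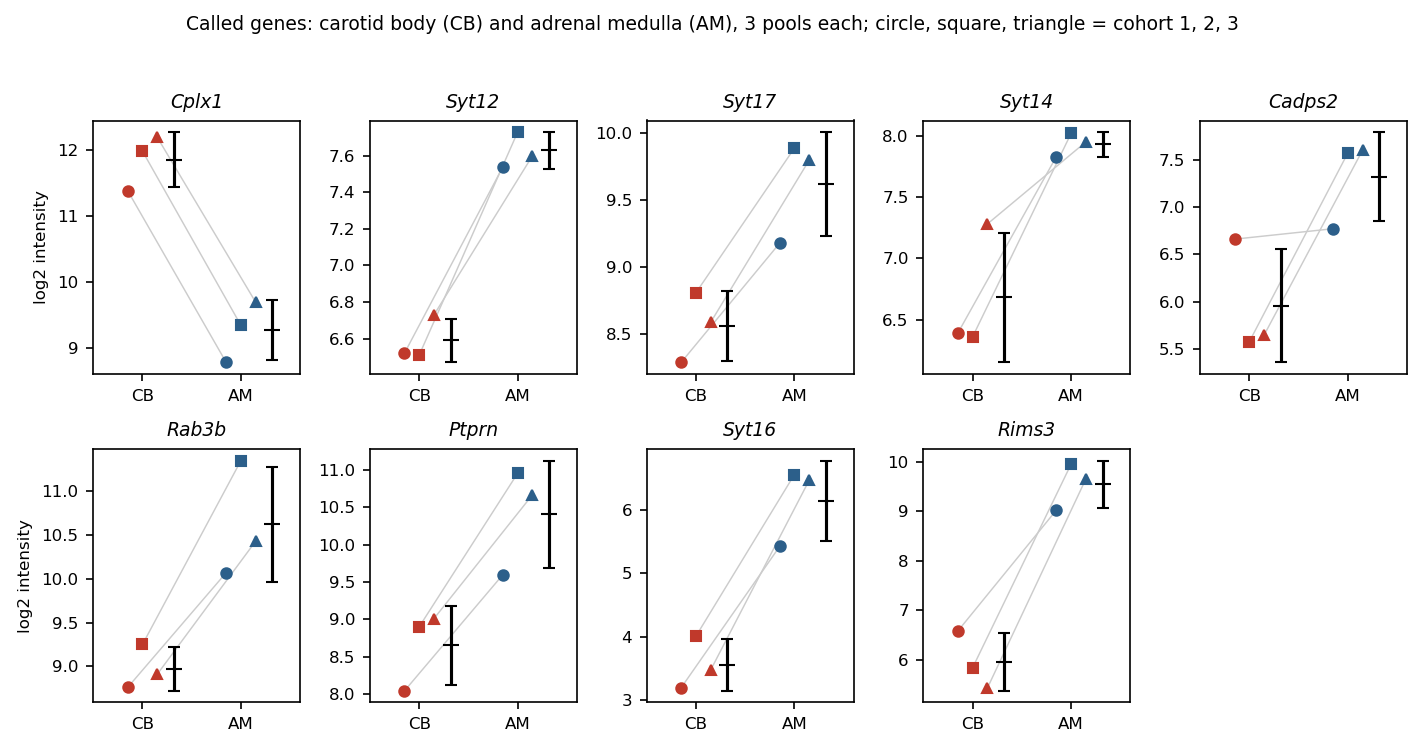
Log2 intensity of the 9 called genes in carotid body (CB, red) and adrenal medulla (AM, blue), 3 pools each; grey lines join samples of 1 cohort, black marks give mean and SD. The groups do not overlap in any panel, and the line of Cadps2 in cohort 1 is almost flat, from 6.66 to 6.77.

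Of the 16 synaptotagmins, 4 were higher in adrenal medulla while 0 were called toward carotid body. Syt16 was at 3.20, 4.01 and 3.48 in carotid body, near the floor of the scale, and at 5.42, 6.55 and 6.46 in adrenal medulla. The difference on this scale was -2.58 ± 0.33 (SE; limma adjusted p = 0.00159), whose size is uncertain because the carotid body values lie near the floor. Syt14 was at 6.39, 6.36 and 7.28 against 7.83, 8.02 and 7.95, so that carotid body array 3 stood nearest to the adrenal arrays, and differed by -1.26 ± 0.25 (SE; limma adjusted p = 0.00922). Syt12 differed by -1.04 ± 0.12 (limma adjusted p = 0.00099), from 6.52, 6.51 and 6.73 in carotid body to 7.54, 7.73 and 7.60 in adrenal medulla, with the arrays of each tissue close together. Syt17 differed by -1.06 ± 0.22 (limma adjusted p = 0.012), from 8.29, 8.81 and 8.59 to 9.18, 9.89 and 9.80, and its other probe set gave -1.76. Syt12 and Syt17 lay just past 2-fold, and neither was called after quantile normalization. Syt12 was not called without adrenal medulla array 2 (-0.98), and Syt17 was not called with array 1 of carotid body or array 2 or 3 of the adrenal pools left out (-0.92 to -0.97). Syt14 was not called without cohort 1 or cohort 2, at -1.16 and -1.05, nor Syt12 without cohort 2.

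These 4 genes belong to the synaptotagmins regarded as not binding calcium, a grouping made after their values were seen. Of 8 such genes 4 were higher in adrenal medulla, against 6.08% of all genes, and of the 8 calcium-binding ones 0 were called in either direction. Syt2, Syt3, Syt6 and Syt10 of the calcium-binding class were dim in both tissues, where a difference would be compressed. In the other class this held for Syt13 only. The difference between the classes was not tested. Syt1, the fast calcium sensor of release, was at 11.04, 11.77 and 11.54 in carotid body, against 10.54, 11.21 and 10.94 for adrenal medulla. The groups overlapped but each cohort was higher in carotid body, with a difference of 0.55 ± 0.23 (SE; limma adjusted p = 0.139, and 0.0185 with the cohort as a block). Syt7, the slower high-affinity sensor of granule release, was at 9.85, 10.37 and 10.32 against 10.15, 10.74 and 10.70, a difference of -0.35 (95% interval -0.84 to 0.13). Syt9, another calcium sensor of dense-core granules, was at 7.77, 8.57 and 8.5 against 7.03, 7.55 and 7.52. All its carotid body arrays were above all adrenal arrays, and the difference of 0.91 ± 0.24 (SE; limma adjusted p = 0.0312) was 1.88-fold.

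Among the other synaptotagmins, Syt4, a granule synaptotagmin, differed by -0.60 ± 0.19 (SE; limma adjusted p = 0.0537, and 0.0329 with the cohort as a block). It was at 10.64, 11.04 and 10.74 in carotid body, against 11.07, 11.48 and 11.68 for adrenal medulla, where the lowest adrenal array lay just above the highest carotid body array. Syt11 was at 0.26, with values of 9.51, 9.95 and 9.51 against 9.06, 9.43 and 9.69. Syt5 was at -0.39, Syt8 at 0.10 and Syt2 at 0.53. Syt2, Syt3, Syt6, Syt10 and Syt13 were dim in both tissues, with a mean under the median of all probe sets, 5.28, so that a difference there would be compressed.

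**Figure D4:**
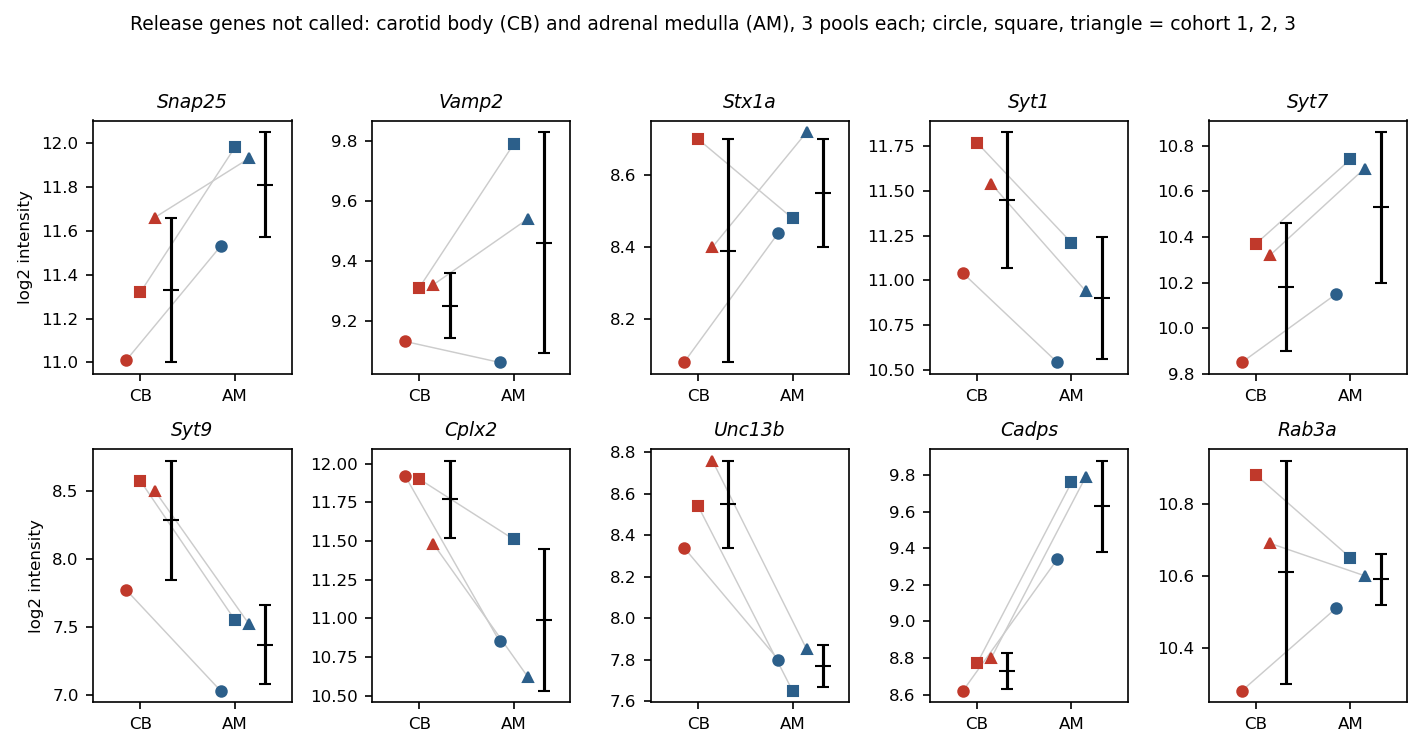
Log2 intensity of 10 genes of regulated release that were not called, in carotid body (CB, red) and adrenal medulla (AM, blue), 3 pools each; grey lines join samples of 1 cohort, black marks give mean and SD. Unc13b, Cadps and Syt9 show separate groups less than 2-fold apart, while Vamp2, Stx1a and Rab3a overlap.

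Priming and docking factors held the largest difference of the set. Rims3, a short Rim protein, was at 6.58, 5.84 and 5.43 in carotid body, against 9.02, 9.95 and 9.65 for adrenal medulla. The groups lay far apart, and carotid body array 1 was the highest of its tissue. This array had the high cortex markers and the largest Gapdh gap. The difference was -3.59 ± 0.33 (SE; limma adjusted p = 0.000372), 12.1-fold, and was -3.91 without carotid body array 1. A second, dimmer probe set gave -0.70. Rims4, the other short Rim, was at 6.40, 6.26 and 5.39 against 7.14, 6.81 and 6.91, a difference of -0.94 ± 0.26 (SE; limma adjusted p = 0.0358) under 2-fold. The dimmer probe set of Rims4 gave -2.65 (limma adjusted p = 0.000399). The long Rims, scaffolds that tie vesicles to calcium channels, were not called: Rims2 was at 8.98, 9.42 and 8.89 against 10.15, 9.27 and 9.46 (-0.53), and Rims1 at 4.74, 5.14 and 4.76 against 4.33, 4.49 and 4.47 (0.45; limma adjusted p = 0.0584). Rims1 was dim in both tissues, where a difference would be compressed. The 5 probe sets of Rims2 ranged from -1.06 to 0.12.

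Cadps and Cadps2, which prime dense-core granules, were both lower in carotid body by the p threshold. Cadps2 was at 6.66, 5.58 and 5.65 in carotid body, against 6.77, 7.57 and 7.60 for adrenal medulla. The 2 samples of cohort 1 were nearly equal while the other cohorts differed by -1.99 and -1.95. The difference was -1.35 ± 0.34 (SE; limma adjusted p = 0.024), and -1.70 without carotid body array 1. It was not called when array 2 or 3 of either tissue was left out (limma adjusted p = 0.0509 to 0.0956). Cadps was at 8.62, 8.77 and 8.80 against 9.34, 9.76 and 9.79, a clear separation of -0.90 ± 0.15 (SE; limma adjusted p = 0.00485) that was 1.86-fold.

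The Unc13 genes encode the Munc13 priming proteins. Unc13b was at 8.34, 8.54 and 8.76 in carotid body, against 7.80, 7.65 and 7.85 for adrenal medulla. Every carotid body array lay above every adrenal array, with a difference of 0.78 ± 0.14 (SE; limma adjusted p = 0.00648) and a fold of 1.72; a dim second probe set gave 0.06. Unc13a was at 5.22, 5.85 and 5.61 against 5.72, 6.42 and 5.54, with overlapping groups (-0.33; 95% interval -0.93 to 0.27). Unc13c and Unc13d, the latter of cytotoxic immune cells, were dim in both tissues and at 0.12 and 0.21.

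Among the Rab GTPases, which carry vesicles to release sites, only Rab3b was called. It was at 8.76, 9.25 and 8.91 in carotid body, against 10.07, 11.35 and 10.43 for adrenal medulla. The groups were separate, adrenal medulla array 2 standing highest, and the difference was -1.64 ± 0.31 (SE; limma adjusted p = 0.00829). Rab3a, the main Rab3 of synaptic vesicles, was at 10.28, 10.88 and 10.69 against 10.51, 10.65 and 10.60, a difference of 0.03 (95% interval -0.36 to 0.41) whose sign changed with the processing. Rab3c was at 10.23, 11 and 11.19 against 11.24, 11.81 and 11.61, with the groups just apart (-0.75; limma adjusted p = 0.0817, and 0.0168 with the cohort as a block). Rab3d, of exocrine granules, was at -0.02. Rab27a, a Rab of secretory granules, was at 9.35, 10.43 and 10.44 against 9.33, 10.02 and 9.89 (0.33; 95% interval -0.42 to 1.07), and Rab27b at 5.70, 5.85 and 5.92 against 5.50, 5.45 and 5.64 (0.30; limma adjusted p = 0.115).

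Of the vesicle and granule membrane proteins, Ptprn was higher in adrenal medulla. Ptprn, or IA-2, a transmembrane protein of dense-core granules, was at 8.04, 8.90 and 9.01 in carotid body, against 9.60, 10.96 and 10.67 for adrenal medulla. Array 1 was the lowest of both tissues, and the difference was -1.76 ± 0.39 (SE; limma adjusted p = 0.0149). It was not called without adrenal medulla array 2 or 3, with limma adjusted p of 0.0594 and 0.0598. Its paralogue Ptprn2 was at 8.83, 9.83 and 10.04 against 10.04, 10.85 and 10.72, lower in carotid body in each cohort (-0.97; limma adjusted p = 0.0823, and 0.0064 with the cohort as a block). Sv2a, a glycoprotein of synaptic vesicles and granules, was at 8.10, 8.46 and 8.32 against 8.53, 9.18 and 9.49, with separate groups (-0.78; limma adjusted p = 0.0537, and 0.0214 with the cohort as a block). Sv2b was dim, at 3.91, 3.78 and 4.13 against 4.21, 4.63 and 4.36 (-0.46), and so was Sv2c, at 4.08, 3.81 and 3.56 against 3.74, 3.49 and 3.83 (0.13). The adrenal-higher genes shared their direction between tissues with the catecholamine cell list (7 of 10 markers higher) and the cortex list (9 of 10). Within carotid body, where the cortex list was high on array 1 only, Rims3 and Cadps2 were highest on array 1. Syt16, Ptprn, Rab3b and Syt17 were lowest on that array, and Syt14 and Syt12 were highest on array 3. Array 1 also had the largest Gapdh gap of the carotid body arrays (1.45, against 1.04 and 0.59). The part of either list or of RNA quality in these genes was not tested.

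Paralogues were set against each other on the same arrays in 7 pairs chosen after their values were seen. The change of Cplx1 exceeded that of Cplx2 by 1.81 ± 0.53 (SE), and that of Rims3 was below that of Rims2 by -3.06 ± 0.66. Rab3b changed by -1.67 ± 0.35 relative to Rab3a, and Ptprn by -0.80 ± 0.18 relative to Ptprn2. Syt1 changed by 0.90 ± 0.10 relative to Syt7, and Syt9 by 0.36 ± 0.10 relative to Syt1. In these 6 pairs the log ratios of the tissues did not overlap, which gives the smallest exact two-sided permutation p that 3 against 3 arrays allow, 0.10 (adjusted over the 7 pairs, 0.117). Cadps2 and Cadps did not separate, at -0.45 ± 0.42 (exact permutation p = 0.40). Since the pairs were chosen with the values known, these p values give no support for a difference. Each gene stood by its brightest probe set, and a pair can change with another. The probe sets of Syt1 ranged from -0.46 to 2.08, those of Rims2 from -1.06 to 0.12, and the dimmer one of Rims3 gave -0.70.

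Genes outside the symbol rule that work with this machinery were taken in 5 lists with 93 measured genes. Of these, 11 were higher in adrenal medulla, 1 toward carotid body and 81 in neither direction, with a median of -0.15, against 6.08% and 5.91% of all genes and their median of -0.04. Active zone scaffolds, which organise release sites, gave 4 of 15 higher in adrenal medulla: Pclo at -2.81, Erc2 at -1.79, Rimbp2 at -1.59 and Ppfia2 at -1.52. Pclo, or piccolo, was at 7.16, 6.52 and 6.64 in carotid body, against 9.24, 9.86 and 9.65 for adrenal medulla, fully separate (limma adjusted p = 0.000192). Bsn, the paralogue of Pclo, was at 0.12, and Cask, a scaffold kinase, at 0.93 (limma adjusted p = 0.00184), under 2-fold.

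Of 25 Rab effectors and calcium sensors, 4 were higher in adrenal medulla: Rph3a, the Rab3 effector rabphilin, at -1.99, Rab3gap2 at -1.43, Sytl2 at -1.13 and Baiap3, a Munc13 relative, at -1.07. Leaving out array 2 or 3 of carotid body, or array 1 or 3 of the adrenal pools, ended the call of Sytl2 (-0.90 to -1.18), and that of Baiap3 was lost with array 1 of carotid body or array 2 or 3 of the adrenal pools left out (-0.82 to -1.11). Among 23 genes of SNARE recycling and vesicle membranes, Sncg, or gamma-synuclein, alone was called. It was at 10.00, 10.33 and 9.90 in carotid body, against 7.69, 8.23 and 8.10 for adrenal medulla, a separation of 2.07 ± 0.18 (SE; limma adjusted p = 0.000301). Its list also held Napa, the SNARE-disassembling cofactor, at -0.56 and Scamp3 at -0.43, both past the p threshold alone. Of 21 genes of endocytic retrieval, 3 were higher in adrenal medulla: the endophilins Sh3gl3, at -3.25, and Sh3gl2, at -1.34, and the dynamin Dnm3, at -2.15. Bin1, an amphiphysin, was at -0.82 (limma adjusted p = 0.0354). Sh3gl3 was at 6.40, 6.23 and 6.67 against 9.31, 10.08 and 9.68, with no overlap (limma adjusted p = 8.75e-05). None of 9 exocyst genes was called, and Exoc1, Exoc7 and Exoc3 passed the p threshold alone at -0.61, -0.48 and -0.42. Without cohort 2, 5 partner genes were called toward adrenal medulla (2.92% of all genes). Toward carotid body, 2 were called when array 1 of carotid body, array 2 of the adrenal pools or cohort 2 was left out, and 3 without carotid body array 3 or cohort 3.

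**Figure D5:**
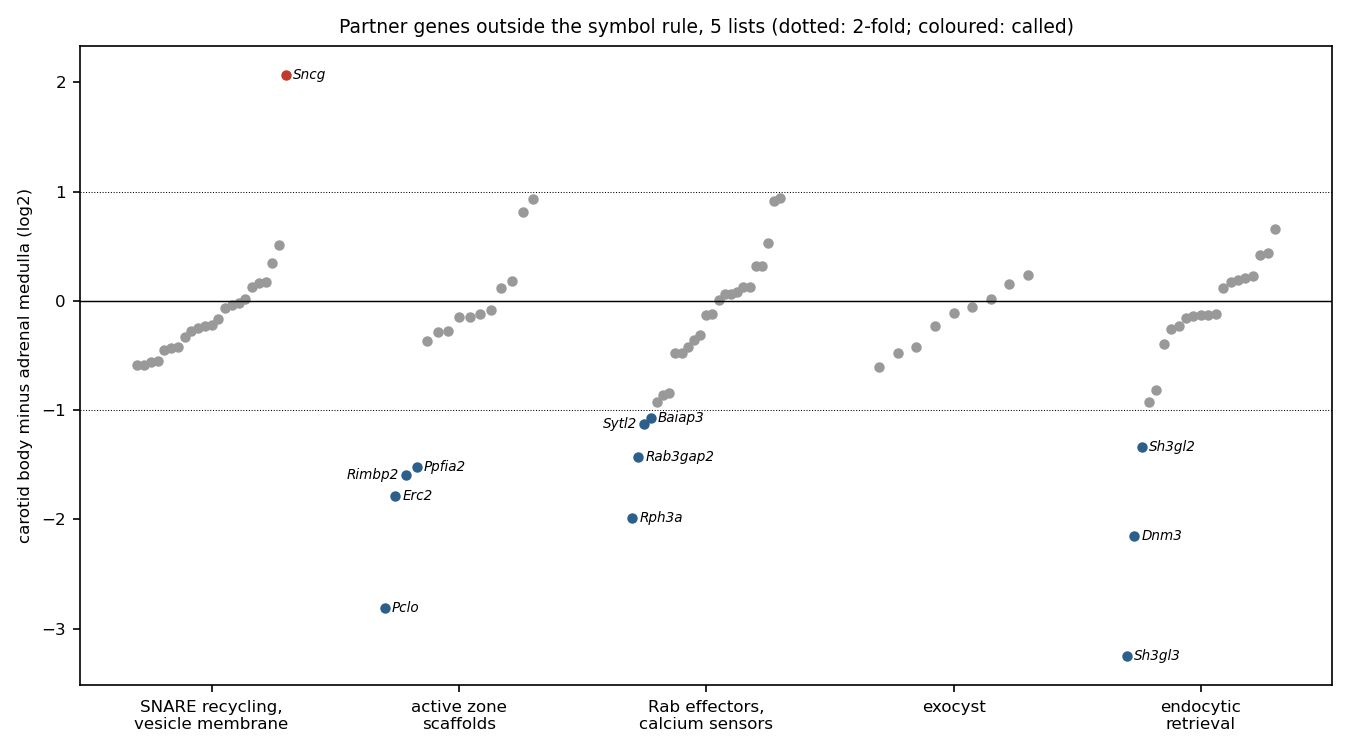
Difference in log2 intensity, carotid body minus adrenal medulla, of 93 partner genes in 5 lists, sorted within each list; dotted lines mark 2-fold. Sh3gl3 (-3.25) and Pclo (-2.81) lie lowest, and Sncg (2.07) is the only point past the upper line.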

How the data were processed

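Expression was measured on Affymetrix 3′ arrays of 3 carotid body and 3 adrenal medulla pools. The authors deposited 1 log2 intensity per probe set and array, which the submitters' processing notes credit to Expression Console. Its algorithm is not stated in the labels. The log2 scale was read from the values. No detection calls were used, and the number of arrays limits the precision. Of 45101 probe sets, 64 controls were left out. Symbols came from the platform annotation of 2016, and probe sets with several symbols were not named.

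The tissues were compared by limma's moderated test (version 3.58.1, R 4.3.3), two-sided and without a block, with Benjamini-Hochberg adjustment over 45037 probe sets. The fit was tested on simulated data. The deposited design text says that numbers mark cohorts, which is the basis for pairing; same-numbered samples' deviations correlated at 0.22, 0.084 and 0.16, and unlike-numbered ones at -0.21 to 0.10. Xist was higher in the carotid body sample of each cohort, so that equal numbers may not mark the same mice. The block result is given where only 1 of the fits passes the p threshold.

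Per-array values are given for called genes and a fixed core set. From partner lists the text names the 4 largest differences past the p threshold, or the 2 brightest genes where there are none; others it names, such as Bsn and genes just short of a threshold, were chosen after their values were seen. Genes, lists and tests were chosen with earlier results of these data known. Promoter sequence is from RefSeq (GRCm38.p6).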

Additional observations from a re-analysis of the deposited data

How the results depend on the processing

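The counts of the 73 genes were 8 toward adrenal medulla and 1 toward carotid body, and those of the partner genes 11 and 1. With the cohort as a replicate block they were again 8 and 1, with the same genes, and 11 and 1. The block added the calls of the markers Prph and Hsd3b1, and it moved 7 uncalled genes of the 73 to an adjusted p under 0.05 and Stxbp2 above it. With quantile normalization 6 of the 73, without Syt12 and Syt17, and 10 partner genes were called toward adrenal medulla (5.32% of all genes). Toward carotid body 3 and 3 were called (6.29%), with Stxbp6 and Syt9 entering among the 73. With an adjusted p alone the counts were 15 and 5, and 21 and 6 for partners; with treat against 1.5-fold, 3 and 7 were higher in adrenal medulla (3.13% of all genes). Leaving out single arrays gave 4 to 11 toward adrenal medulla and 1 to 2 toward carotid body, and 9 to 13 and 1 to 3 for partners; leaving out cohorts gave 3 to 7 and 1, and 5 to 11 and 1 to 3. Of the 8 genes, 4 (Rims3, Syt16, Rab3b and Syt14) were called without any single array. Centring arrays on their median moved the median difference of all genes from -0.04 to -0.15 and gave 11 and 1 (7.74% and 5.22% of all genes). Rab27a turned to -0.18 with the mean of its probe sets. Rab3a turned to -0.09 with centring, -0.15 with the mean of its probe sets, -0.32 with probe sets without an _s_at or _x_at suffix, and ranged from -0.11 to 0.19 when single arrays were left out, below 0 without carotid body array 2 (-0.11), carotid body array 3 (-0.01) and adrenal medulla array 1 (-0.01), and -0.07 without cohort 2. For these changes the cause was not tested. Over 625 values of named genes under alternatives, 580 kept direction and call, 26 lost the call, 11 gained one and 8 changed sign. Signal near the floor limits 13 genes dim in both tissues.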

Other observations

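Of the 73 genes, 49 had several probe sets, and none had probe sets called in opposite directions. In 6 genes that were not called by their brightest probe set, a dimmer one was. Rims4, a short Rim, gave -2.65 with its dimmer probe set, at 5.64, 4.70 and 4.71 in carotid body against 7.75, 7.65 and 7.61 for adrenal medulla (limma adjusted p = 0.000399), against -0.94 with the brighter one. Syt1, the calcium sensor, gave 2.08 with 1 of 4 probe sets, at 7.11, 7.44 and 6.24 against 4.34, 4.91 and 5.31 (limma adjusted p = 0.00489), against 0.55 with the brightest, and another gave -0.46. Rab3c, Rims2, Snap29 and Stx3 gave -1.10, -1.06, -1.05 and -1.18 with a dimmer probe set. Whether these probe sets read different transcript ends was not tested.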
